A study of Mus musculus with 14 samples.

Results

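The genes described here are 10 genes of the vessel wall: the addressin Madcam1, the selectins Sele and Selp, the adhesion molecules Icam1 and Pecam1, the junction gene Cdh5, the sialomucin Emcn, the VEGF receptors Kdr and Flt4, and the scavenger receptor Stab2. They were picked by name from the 55401 genes counted in each library, and all 10 passed the filter on low counts that left 17671 genes for testing. RNA was sequenced from marrow flushed out of the distal tibia, a site rich in bone marrow adipose tissue (BMAT), of male mice 24 weeks old on a mixed C57BL6/SJL background, and marrow from a pair of mice made up each sample. The mice either kept Pnpla2, the gene of adipose triglyceride lipase, in every cell (BMAd-Pnpla2+/+, littermates) or carried a deletion of the floxed gene in bone marrow adipocytes (BMAd-Pnpla2-/-). The deleter is a Cre placed in the Adipoq gene that works only after recombination by an Osterix-driven FLPo, and it also marks a few stromal cells. Mice of both genotypes carried this Cre and FLPo, and they differed by the floxed alleles. The paper reports that the Cre insertion lowers adiponectin protein. Mice of each genotype had food ad libitum (AL) or had caloric restriction (CR) of 30% for 6 weeks. There were 4 libraries each of BMAd-Pnpla2+/+ AL and BMAd-Pnpla2+/+ CR, and 3 each of BMAd-Pnpla2-/- AL and BMAd-Pnpla2-/- CR.

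Endothelial cells line every vessel of the marrow, and in this tissue most of them belong to sinusoids, wide and leaky venous vessels through which blood cells leave and home. Leukocytes slow down on selectins, arrest on ligands of the immunoglobulin superfamily through their integrins, and then cross the wall between cells held together by VE-cadherin and Pecam1. Madcam1 is the addressin of gut vessels and binds the integrin of Itga4 and Itgb7. Kdr and Flt4 receive VEGF signals and support sinusoids, and Stab2 clears hyaluronan and other waste from blood in sinusoids.

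Each library held 18898324 to 21665553 unstranded gene counts. In 11 libraries 4.30% to 4.62% of the gene reads given to a strand lay on the first strand, while in the 3 BMAd-Pnpla2-/- CR libraries that share was 50.1% to 50.5%, so that the type of library and this group cannot be told apart. Whether it bears on the values of that group was not tested beyond the ways of counting given below for Selp and Icam1. Counts taken without regard to strand were used for all 14 libraries, and values that depend on this choice are given beside the genes they touch. Pnpla2 itself, in CPM (reads scaled to library size, with TMM factors), lay at 174 to 301 in BMAd-Pnpla2+/+ AL, 502 to 1015 in BMAd-Pnpla2+/+ CR, 131 to 170 in BMAd-Pnpla2-/- AL and 177 to 267 in BMAd-Pnpla2-/- CR, and the log2 fold change between genotypes was -1.90 under CR (SE 0.26, adjusted p = 0.039) and -0.57 under AL (SE 0.25, adjusted p = 1.0). Bulk marrow holds other cells in plenty: 9 neutrophil genes summed to 12368 to 33133 CPM over the 14 libraries, against 520 to 4599 CPM for 8 adipocyte genes. A lower level in such tissue cannot separate fewer cells of a type from less RNA per cell.

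Promoters of the leukocyte adhesion genes are shown because Madcam1 differed most from its companions under CR. RefSeq promoters (250 bases before to 50 after the start, GRCm38.p6) were at hand for 8 of the 10 genes. The promoters lie at chr10:79664309-79664608 (Madcam1), chr1:164047984-164048283 (Sele), chr1:164115014-164115313 (Selp) and chr9:21015690-21015989 (Icam1), all on the plus strand, and capitals mark matches on either strand to the NF-kB-type letters GGGAANNNCC.
Madcam1: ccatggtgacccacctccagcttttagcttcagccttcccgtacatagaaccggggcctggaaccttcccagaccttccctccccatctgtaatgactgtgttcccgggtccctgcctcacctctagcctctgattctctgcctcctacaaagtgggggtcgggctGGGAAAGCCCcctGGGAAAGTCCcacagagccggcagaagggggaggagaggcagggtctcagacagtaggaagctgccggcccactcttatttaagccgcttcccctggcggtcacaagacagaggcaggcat
Sele: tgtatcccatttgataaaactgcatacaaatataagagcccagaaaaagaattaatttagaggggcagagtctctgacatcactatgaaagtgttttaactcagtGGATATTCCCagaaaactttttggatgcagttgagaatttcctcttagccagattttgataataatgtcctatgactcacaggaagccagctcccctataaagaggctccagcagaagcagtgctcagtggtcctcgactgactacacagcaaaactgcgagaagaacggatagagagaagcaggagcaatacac
Selp: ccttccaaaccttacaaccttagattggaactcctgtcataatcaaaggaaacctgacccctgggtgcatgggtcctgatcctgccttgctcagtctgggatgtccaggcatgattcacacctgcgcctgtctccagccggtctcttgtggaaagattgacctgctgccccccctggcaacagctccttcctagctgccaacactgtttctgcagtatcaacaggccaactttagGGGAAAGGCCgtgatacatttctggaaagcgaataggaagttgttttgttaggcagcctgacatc
Icam1: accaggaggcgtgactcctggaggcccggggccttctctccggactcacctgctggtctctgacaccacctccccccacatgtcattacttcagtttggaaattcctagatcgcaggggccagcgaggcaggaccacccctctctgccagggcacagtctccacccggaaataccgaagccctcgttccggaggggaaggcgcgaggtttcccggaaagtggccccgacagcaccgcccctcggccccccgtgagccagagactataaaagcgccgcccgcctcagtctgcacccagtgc
Madcam1 held a pair of these matches, GGGAAAGCCC at -84 to -75 and GGGAAAGTCC at -71 to -62 from the start. Sele held 1 on the opposite strand at -145 to -136, and Selp held 1 at -15 to -6. No match to these exact letters stood in the windows of Icam1, Emcn, Kdr, Flt4 or Stab2. Near matches were not counted, and the Icam1 window holds TGGAAATTCC, which differs from the letters at its first base only. Among 32851 promoters of the same length, 5.78% held at least 1 match and 0.304% held 2 or more. Neither the exact ETS-type letters CCGGAAG (8.86% of all promoters) nor the exact GATA-type letters AGATAA (11.2%) occurred in the 8 windows. Near matches to these were not counted either. The Icam1 window, for instance, holds CCGGAAA and the Sele window TGATAA, which differ from the letters at 1 base. TATAAA (13.6%) occurred in the windows of Sele and Icam1. The letters were chosen with these sequences in view, and a match is only a description of the window.

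Of the 10 genes 6 rose under CR in BMAd-Pnpla2+/+ marrow at an adjusted p under 0.05: Madcam1 about 26-fold, and Cdh5, Emcn, Kdr, Flt4 and Stab2 between 1.71- and 2.02-fold. The same threshold was passed upward by 15.1% and downward by 10.9% of all genes tested. The study's own criteria ask in addition for a log2 fold change over 1, and Madcam1 and Emcn met them, 2 of 10 against 7.33% of all genes in the upward direction. Sele, Selp, Icam1 and Pecam1 did not pass, with log2 fold changes between -0.22 and 0.14. The median over the 10 genes was 0.83 on the log2 scale, and over all genes tested it was 0.0028. Adjusted p-values are from edgeR's quasi-likelihood test with Benjamini-Hochberg adjustment over all 17671 genes.

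**Figure D1:**
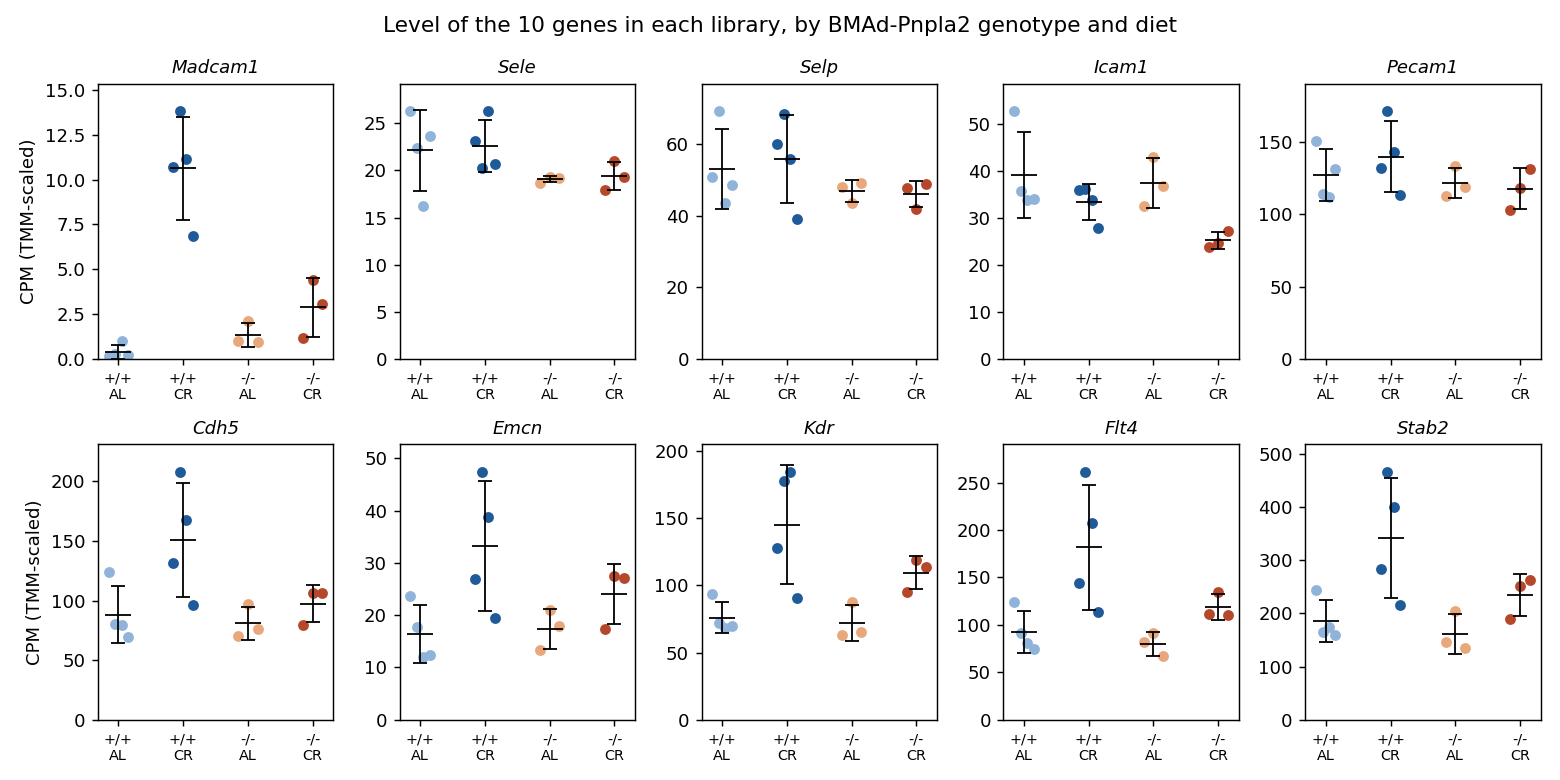
Level of each of the 10 genes in CPM (TMM-scaled, linear axes from 0) in the 14 libraries, by genotype (+/+ or -/-) and diet (AL or CR). Circles are libraries, and the bar and whiskers are the mean ± SD (n = 4 for +/+, n = 3 for -/-). Madcam1 was the gene whose +/+ CR libraries (6.86 to 13.8 CPM) all stood above every other library.

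Madcam1 (chr10:79664559-79668537, plus strand, GRCm38) was nearly silent in AL marrow of BMAd-Pnpla2+/+ mice, with 3, 5, 19 and 5 reads or 0.145, 0.264, 0.978 and 0.237 CPM in the 4 libraries. Under CR the same genotype had 226, 303, 251 and 130 reads, or 10.7, 13.8, 11.2 and 6.86 CPM. The lowest CR library was therefore above the highest AL library, a separation that 12.4% of all genes also showed in this direction. The log2 fold change was 4.71 (SE 0.54, adjusted p = 5.3e-04). In BMAd-Pnpla2-/- AL libraries Madcam1 had 18, 40 and 18 reads (0.979, 2.11 and 0.952 CPM), and in BMAd-Pnpla2-/- CR libraries 22, 84 and 62 reads (1.16, 4.42 and 3.04 CPM). These groups overlapped, and the log2 fold change of 1.09 (SE 0.55) did not pass the test (adjusted p = 0.21).

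Sele (chr1:164048234-164057677, plus strand) encodes E-selectin, which marrow vessels make without inflammation, and its level was even across the study. Its libraries ran from 16.2 to 26.3 CPM in BMAd-Pnpla2+/+ AL, 20.2 to 26.3 in BMAd-Pnpla2+/+ CR, 18.7 to 19.3 in BMAd-Pnpla2-/- AL and 17.9 to 20.98 in BMAd-Pnpla2-/- CR. The ranges of the diets overlapped in each genotype, and the effect of CR was 0.03 (SE 0.14) on the log2 scale in BMAd-Pnpla2+/+ and 0.03 (SE 0.16) in BMAd-Pnpla2-/-. Selp (chr1:164115264-164150026, plus strand), the gene of P-selectin in endothelium and platelets, ran from 43.5 to 69.3 CPM, 39.1 to 68.4 CPM, 43.5 to 49.1 CPM and 42.0 to 48.8 CPM in the same order of groups. The groups of Selp overlapped throughout, and its log2 fold changes under CR were 0.07 (SE 0.16) and -0.02 (SE 0.19).

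Icam1 (chr9:21015985-21028817, plus strand), the ligand of the integrins of Itgb2 with Itgal or Itgam, was the only one of the 10 genes to fall. In BMAd-Pnpla2-/- mice it stood at 32.6, 43.1 and 36.8 CPM under AL and at 23.8, 24.8 and 27.3 CPM under CR. The groups did not overlap, as for 17.4% of all genes in this direction, and the log2 fold change was -0.57 (SE 0.17, adjusted p = 0.047), with 5.57% of all genes called lower in this comparison. In BMAd-Pnpla2+/+ it stood at 52.8, 35.9, 33.9 and 34.1 CPM under AL and 36.0, 36.1, 34.0 and 28.0 CPM under CR, with a log2 fold change of -0.22 (SE 0.15, adjusted p = 0.26). The call in BMAd-Pnpla2-/- was lost when any 1 library of that genotype was left out (adjusted p between 0.063 and 0.12). Pecam1 (chr11:106654217-106750628, minus strand), which endothelium shares with platelets and leukocytes, had group ranges of 112 to 151, 113 to 171, 113 to 133 and 103 to 131 CPM, and neither diet effect passed the test (0.14, SE 0.13, and -0.05, SE 0.15).

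Cdh5 (chr8:104101625-104144511, plus strand) encodes VE-cadherin, the adhesive protein of endothelial junctions and is largely restricted to endothelium. Its AL libraries in BMAd-Pnpla2+/+ stood at 124, 80.6, 79.4 and 69.4 CPM and its CR libraries at 132, 208, 167 and 96.2 CPM. The groups overlapped, because AL replicate 1 was above CR replicate 4, and the rise was 0.77 on the log2 scale (SE 0.23, adjusted p = 0.028). Emcn (chr3:137341067-137432185, plus strand), a sialomucin of venous and sinusoidal endothelium, stood at 23.7, 17.8, 11.9 and 12.4 CPM under AL and 27.0, 47.4, 38.9 and 19.5 CPM under CR, a rise of 1.01 (SE 0.29, adjusted p = 0.024). Again only AL replicate 1 was above the lowest CR library. The calls of Cdh5 and Emcn did not hold in every setting, with the highest adjusted p at 0.082 and 0.072.

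Kdr (chr5:75932827-75978458, minus strand), the main receptor of VEGF-A, stood at 93.3, 72.4, 68.5 and 69.6 CPM under AL and 128, 178, 185 and 91.0 CPM under CR in BMAd-Pnpla2+/+. Only AL replicate 1 and CR replicate 4 crossed, and the rise was 0.94 (SE 0.20, adjusted p = 0.0070). Flt4 (chr11:49609263-49652739, plus strand), a receptor of VEGF-C and VEGF-D that marks marrow sinusoids as well as lymphatic vessels, stood at 124, 91.1, 81.1 and 74.6 CPM under AL and 144, 261, 208 and 114 CPM under CR, a rise of 0.97 (SE 0.23, adjusted p = 0.012). Stab2 (chr10:86841198-87008025, minus strand) stood at 244, 165, 173 and 158 CPM under AL and 284, 466, 400 and 215 CPM under CR, a rise of 0.88 (SE 0.23, adjusted p = 0.017). The same pair of libraries crossed in all 3 genes. In these 4 AL libraries replicate 1 was the highest for 8 of the 10 genes, and among the 4 CR libraries replicate 2 was the highest for 8 and replicate 4 the lowest for 9. CR replicate 4 was also the lowest of its group for the summed adipocyte genes, at 1884 CPM against 3542 to 4599 CPM, and whether its content of cells bears on these values was not tested.

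In BMAd-Pnpla2-/- mice none of the 10 genes rose at an adjusted p under 0.05 when all 4 groups were fitted together with edgeR or DESeq2, with Kdr alone at an unadjusted p under 0.05 in this direction, while 6.04% of all genes did, and 2.62% also had a log2 fold change over 1. Kdr stood at 63.4, 87.6 and 65.2 CPM under AL and 95.4, 119 and 114 CPM under CR, groups that did not overlap, with a log2 fold change of 0.60 (SE 0.23, adjusted p = 0.10). Flt4 moved from 82.3, 91.8 and 66.9 CPM to 112, 135 and 110 CPM, also without overlap (0.57, SE 0.27, adjusted p = 0.18). Such a separation upward was common here, at 20.5% of all genes. In this comparison edgeR gave 5145 of all 17671 genes, and 2 of the 10, an unadjusted p under 0.05 in either direction. When edgeR was given only the 2 groups compared, Kdr (0.57, adjusted p = 0.039) and Flt4 (0.54, adjusted p = 0.037) passed, and Kdr also passed without BMAd-Pnpla2+/+ CR replicate 4 (0.60, adjusted p = 0.035). Stab2 (0.54, SE 0.27), Emcn (0.46, SE 0.33) and Cdh5 (0.27, SE 0.26) overlapped between diets. The median of the 10 genes was 0.37, against 0.047 for all genes.

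**Figure D2:**
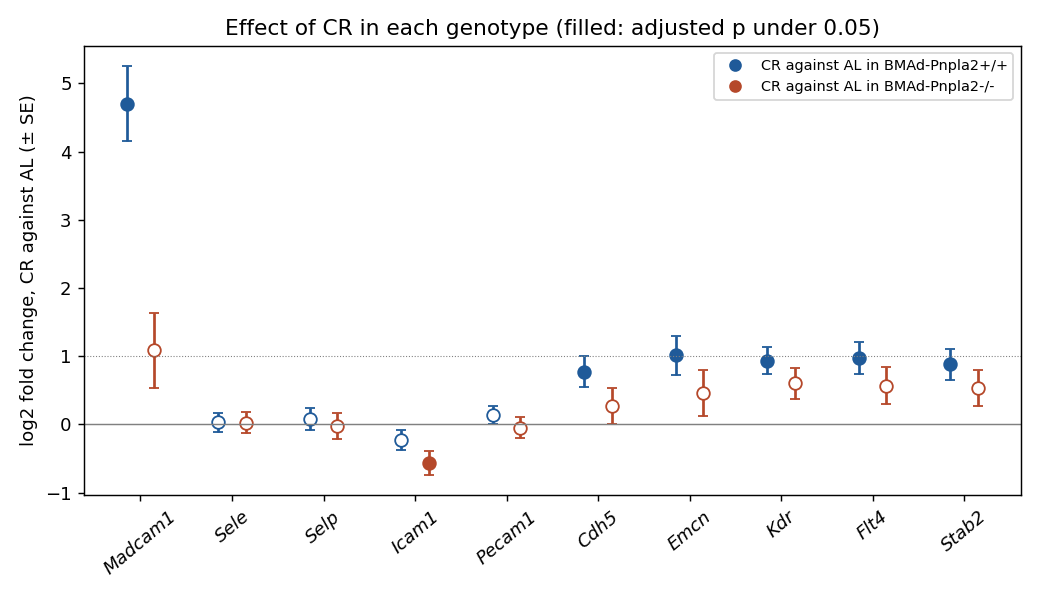
Log2 fold change of CR against AL for the 10 genes (y axis, circles with SE) in BMAd-Pnpla2+/+ (blue) and BMAd-Pnpla2-/- (red), filled where the adjusted p was under 0.05. The dotted line marks 1. Madcam1 stood at 4.71 and 1.09, the 5 genes on the right between 0.77 and 1.01 in BMAd-Pnpla2+/+ and between 0.27 and 0.60 in BMAd-Pnpla2-/-, and Sele, Selp, Icam1 and Pecam1 between -0.57 and 0.14.

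The genotypes were then compared within each diet. Under AL none of the 10 genes passed an adjusted p under 0.05 with edgeR or with DESeq2, where edgeR called 0% of all genes. There edgeR gave 700 of all 17671 genes an unadjusted p under 0.05. Madcam1, the only one of the 10 at an unadjusted p under 0.05, had the largest difference, 1.73 higher in BMAd-Pnpla2-/- on the log2 scale (SE 0.61, unadjusted p = 0.013, adjusted p = 1.0). Its AL groups overlapped through BMAd-Pnpla2+/+ replicate 3, which had 19 reads against 3 to 5 in the others, and without that library the difference was 2.62. Under CR no gene of the 10 passed with edgeR either, against 0.0113% of all genes. An unadjusted p under 0.05 in edgeR was reached by 5 of the 10 and by 4095 of all 17671 genes. DESeq2 called 1 of the 10, Madcam1, and 1540 of the 13794 genes to which it gave an adjusted p. All 10 were lower in BMAd-Pnpla2-/-, by log2 fold changes between -1.89 and -0.22 with a median of -0.44, while 51.3% of all genes were lower and their median was -0.011. Madcam1 (-1.89, SE 0.49, adjusted p = 0.074) and Icam1 (-0.41, SE 0.16, adjusted p = 0.16) had groups that did not overlap, as had 8.06% of all genes in this direction. Cdh5 (-0.63, SE 0.25), Flt4 (-0.61, SE 0.25) and Stab2 (-0.54, SE 0.25) differed more than Icam1 but had groups that overlapped. With Madcam1 and Icam1 they were the 5 genes at an unadjusted p under 0.05 in edgeR. The 10 genes were measured in the same libraries, so that 10 values of 1 sign are not 10 observations. Marker genes of other cell types had median log2 fold changes in the same comparison of -0.90 (8 adipocyte genes), -0.43 (7 mural genes), 0.64 (5 erythroid genes) and 3.74 (3 skeletal muscle genes), with none of these genes called, and their part in the values of the 10 genes was not tested.

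Whether CR acted differently in the genotypes was asked by the interaction. It was -3.62 for Madcam1 (SE 0.78, unadjusted p = 4.1e-04, adjusted p = 0.34), meaning that the log2 effect of CR was smaller by that much in BMAd-Pnpla2-/-, and between -0.55 and -0.0050 for the other 9 genes. None passed an adjusted p under 0.05 with edgeR, which called 0% of all genes, and 1 gene, Madcam1, had an unadjusted p under 0.05. DESeq2 called Madcam1 in both tests that edgeR did not, under CR (-1.92, adjusted p = 0.0054) and for the interaction (-3.66, adjusted p = 0.0024), and so did edgeR on the deposited matrix (-1.84, adjusted p = 0.022, and -3.67, adjusted p = 0.014). For the interaction DESeq2 called 49 of 13794 genes, and edgeR on the matrix 678 of 17509. Between genotypes under CR the matrix called 2451 of 17509 genes. A difference of the diet effect between genotypes thus depended on the tool and on the counts used for Madcam1. The smaller values in BMAd-Pnpla2-/- of the other genes that rose are not shown to differ from those in BMAd-Pnpla2+/+.

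Counts of the other genes were also set against that of Cdh5. No ratio had an adjusted p under 0.05 in the permutation tests given below. With 18 ratios adjusted together and 4 or 3 samples per group none could have. These tests therefore cannot decide whether a ratio differed between diets. Cdh5 itself rose 1.71-fold under CR in BMAd-Pnpla2+/+, so a gene that stayed level has a lower ratio to it there. With Cdh5 of the same library as the yardstick, which needs no scaling of libraries, Icam1 had 42.6% to 49.2% of the Cdh5 count in BMAd-Pnpla2+/+ AL and 17.4% to 29.1% in BMAd-Pnpla2+/+ CR. In BMAd-Pnpla2-/- it had 44.5% to 48.4% under AL and 23.4% to 29.9% under CR, so that no CR library of either genotype reached any AL library. Pecam1 had 121% to 189% against 82.2% to 118% in BMAd-Pnpla2+/+ and 138% to 160% against 111% to 129% in BMAd-Pnpla2-/-, again with no overlap within a genotype. How many of all genes have a ratio to Cdh5 that separates the diets was not worked out, here or for the ratios below. Sele (25.9% ± 6.40 to 16.1% ± 4.90, SD, n = 4) and Selp (63.0% ± 19.4 to 38.1% ± 6.10, SD, n = 4) had lower means under CR in BMAd-Pnpla2+/+ but overlapped.

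The ratios of Stab2, Kdr, Flt4 and Emcn to Cdh5 overlapped between diets in BMAd-Pnpla2+/+. The ratio of Stab2 to Cdh5 was 212% ± 13.9 under AL and 226% ± 9.96 under CR in BMAd-Pnpla2+/+ (SD, n = 4), that of Kdr 87.9% ± 10.3 and 96.8% ± 10.2, that of Flt4 106% ± 5.74 and 119% ± 7.47, and that of Emcn 18.5% ± 2.94 and 21.7% ± 1.54. In BMAd-Pnpla2-/- the ratio of Stab2 was 199% ± 18.0 under AL and 241% ± 4.53 under CR, and that of Kdr 88.7% ± 2.57 and 113% ± 6.37 (SD, n = 3), both higher in every CR library than in every AL library. In BMAd-Pnpla2+/+ Madcam1 had 0.117% to 1.23% of the Cdh5 count under AL and 6.64% to 8.12% under CR. This was a narrow range for the 4 CR libraries, although their Cdh5 ran from 96.2 to 208 CPM. In BMAd-Pnpla2-/- Madcam1 had 1.25% to 2.18% under AL and 1.45% to 4.17% under CR, which overlapped. There the range under CR was wider, while Cdh5 ran from 79.8 to 107 CPM. In exact two-sided permutation tests of the log2 ratio the p for Madcam1, Icam1 and Pecam1 in BMAd-Pnpla2+/+ was 0.02857, the smallest that 4 against 4 samples can give, and 0.171 after adjustment over the 18 ratios tested. With 3 against 3 samples the smallest possible p is 0.1, which Icam1, Pecam1, Kdr and Stab2 reached in BMAd-Pnpla2-/- (adjusted p = 0.18). This yardstick was chosen after the values had been seen.

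**Figure D3:**
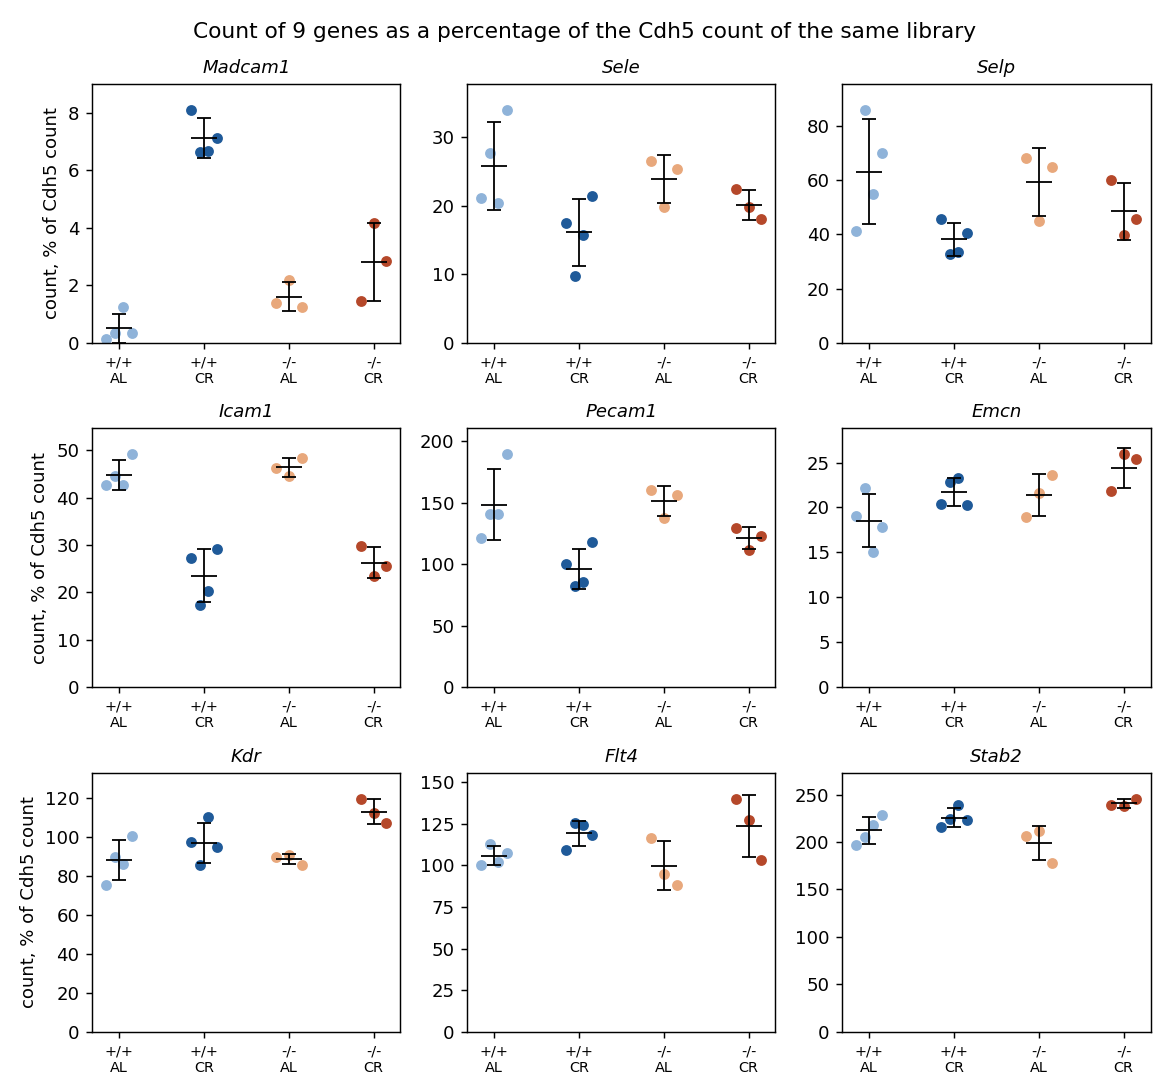
Count of 9 genes as a percentage of the Cdh5 count of the same library (y axes, linear from 0), by genotype and diet. Circles are libraries, and bars and whiskers the mean ± SD (n = 4 for +/+, n = 3 for -/-). Icam1 and Pecam1 were lower in every CR library than in every AL library of their genotype, and Stab2 and Kdr were higher in every CR library of BMAd-Pnpla2-/- and overlapped between diets in BMAd-Pnpla2+/+.

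Levels per length were compared as CPM per kilobase of merged exons. In BMAd-Pnpla2+/+ AL the order was Stab2 (21.2 ± 4.54, SD, n = 4), Cdh5 (21.02 ± 5.78), Pecam1 (20.4 ± 2.91), Selp (12.0 ± 2.54), Flt4 (11.3 ± 2.69), Icam1 (8.99 ± 2.09), Kdr (8.41 ± 1.30), Sele (7.60 ± 1.46), Emcn (3.04 ± 1.02) and Madcam1 (0.283 ± 0.268). Neighbours in this order overlapped except between Pecam1 and Selp, between Sele and Emcn and between Emcn and Madcam1. The gap below Pecam1 came with unstranded counting: with both strands summed, an alternative added after the values had been seen, Selp stood at 18.5 ± 3.75 (15.2 to 23.9) and overlapped Pecam1 (18.0 to 24.2), and lay above Flt4 (9.06 to 15.1). In BMAd-Pnpla2+/+ CR Madcam1 (7.41 ± 2.00) lay above Emcn (6.14 ± 2.29) and just below Icam1 (7.69 ± 0.872) and Sele (7.76 ± 0.954), and all neighbours overlapped. It was last in both groups of BMAd-Pnpla2-/-, at 0.937 ± 0.459 under AL and 2.00 ± 1.14 under CR (SD, n = 3), below Emcn with no overlap in either.

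The way reads are counted bears on Selp, Icam1 and Stab2, which share 624, 511 and 141 exon bases with genes on the opposite strand. Unstranded counting drops read pairs in such stretches, and in the 11 strand-specific libraries the unstranded count was 59.3% to 68.0% of the reverse-strand count for Selp, 77.7% to 85.8% for Icam1 and 92.4% to 95.1% for Stab2. Relative to the sum of both strands, the unstranded share of Selp was 58.0% to 66.9% in the 11 libraries and 59.7% to 65.6% in BMAd-Pnpla2-/- CR. The loss was not alike in all groups. Under AL the shares of Selp and of Icam1 were lower in every BMAd-Pnpla2-/- library than in every BMAd-Pnpla2+/+ library. For Selp the closest of these held 885 of 1479 counts (BMAd-Pnpla2-/- replicate 1) and 1027 of 1646 (BMAd-Pnpla2+/+ replicate 4). The deposited matrix held reverse-strand counts for the 11 libraries and unstranded counts for the 3 BMAd-Pnpla2-/- CR libraries, at all 23441 of its genes. On that matrix Selp was called lower under CR in BMAd-Pnpla2-/- (-0.76, adjusted p = 0.0062) and lower in BMAd-Pnpla2-/- under CR (-0.90, adjusted p = 0.0019), while on summed strands these values were -0.13 and -0.30. For Icam1 the matrix gave -0.92 and -0.67 and the summed strands -0.59 and -0.38. The fall of Icam1 under CR in BMAd-Pnpla2-/- was called with unstranded counts and with summed strands. The matrix called it too, but the mixed counting lowers Icam1 in that group alone. Icam1 in the matrix lay at 77.1% to 78.1% of both strands in BMAd-Pnpla2-/- CR and at 97.5% to 98.3% in BMAd-Pnpla2-/- AL.

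**Figure D4:**
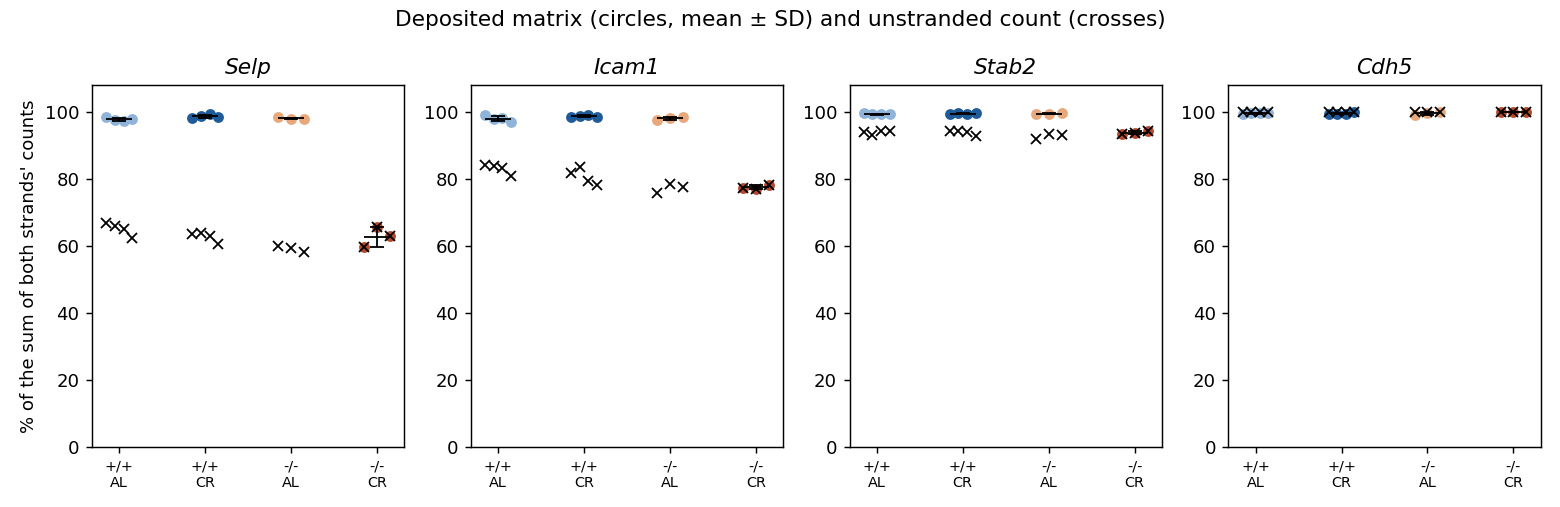
Count in the deposited matrix (circles, with mean ± SD) and unstranded count (crosses) as a percentage of the sum of both strands' counts (y axis, linear from 0) for Selp, Icam1, Stab2 and, as a gene without shared exon bases, Cdh5. In the matrix Selp lay at 97.2% to 99.3% in 3 groups and at 59.7% to 65.6% in BMAd-Pnpla2-/- CR.

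Some other genes of the vessel wall rose with the endothelial genes above in BMAd-Pnpla2+/+ mice. No gene of the lists in this and the following paragraphs was called by edgeR for the interaction. Different counts called in the 2 genotypes therefore do not show that CR acted differently in them. Of 20 endothelial identity genes 10 rose and 1 fell at an adjusted p under 0.05 (median log2 fold change 0.63), and in BMAd-Pnpla2-/- mice 3 rose and none fell (median 0.37). Among them were Gpihbp1, which holds lipoprotein lipase on capillaries (1.72, SE 0.29, adjusted p = 0.0030 and 1.12, SE 0.33, adjusted p = 0.047 in the 2 genotypes), Ptprb, the phosphatase of VE-cadherin and Tek (1.38 and 1.26), Ramp2 (1.27 in BMAd-Pnpla2+/+) and Robo4 (1.16). The gene that fell was Vwf (-0.84, adjusted p = 0.029), which megakaryocytes make as well, and 5 of 9 megakaryocyte and platelet genes tested fell too (median -0.72), among them Treml1 (-1.19), Ppbp (-1.08) and Gp6 (-1.04). The summed level of the 10 megakaryocyte genes was 2300 to 3998 CPM under AL and 1133 to 2276 CPM under CR in BMAd-Pnpla2+/+, and 2327 to 3335 CPM and 1817 to 2572 CPM in BMAd-Pnpla2-/-. Selp and Pecam1 are also megakaryocyte genes, and the part of these cells in their values was not tested.

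Of 10 sinusoidal genes 6 rose in BMAd-Pnpla2+/+ (median 0.61) and none in BMAd-Pnpla2-/- (median 0.38), and Stab1 (1.20, adjusted p = 0.0084), the orphan receptor Gpr182 (1.11) and the diaphragm gene Plvap (1.10) met the study's criteria. The 4 that did not pass in BMAd-Pnpla2+/+ were Lyve1 (-0.72, adjusted p = 0.051), Adamts5 (-0.08), Fcgr2b (0.17) and Tfpi (0.27). Vcam1 and Mrc1 of this list are also on the macrophage list, of which 3 of 10 genes rose. Of 10 arterial genes 1 rose, Vegfc, which is also a ligand of Flt4 (0.74, adjusted p = 0.036). The arterial genes with the highest levels were Fbln5 (0.73, adjusted p = 0.089) and Bmx (-0.12, adjusted p = 0.57). Of 5 lymphatic genes tested none changed in BMAd-Pnpla2+/+, where Mmrn1 had -0.27, Reln -0.35 and Lyve1 the value above. In BMAd-Pnpla2-/- 1 rose, Prox1 (2.12, SE 0.59, adjusted p = 0.036), which had 0.92 in BMAd-Pnpla2+/+ (SE 0.51, adjusted p = 0.19) and an interaction that was not called (1.20, SE 0.78, adjusted p = 0.59), with the summed muscle genes of that group given further on. Of 6 lymphatic genes looked up, Ccl21a had no read in 3 of the 4 groups.

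Of 8 VEGF and angiopoietin ligands 6 rose under CR in BMAd-Pnpla2+/+ (median 0.83), with Vegfd (1.38, adjusted p = 0.0067) and the apelin gene Apln (1.06, adjusted p = 0.021) past the criteria, and 1 rose in BMAd-Pnpla2-/-, Pgf (0.97, adjusted p = 0.040). Angpt1 (0.12, adjusted p = 0.62) and Vegfb (0.43, adjusted p = 0.051) did not pass in BMAd-Pnpla2+/+. Of 7 further receptors 6 rose in BMAd-Pnpla2+/+ (median 0.80), with Flt1 (1.09) and Ptprb past the criteria, and 2 rose in BMAd-Pnpla2-/-, Flt1 (0.77, adjusted p = 0.044) and Ptprb. The apelin receptor gene Aplnr (0.08, adjusted p = 0.86) did not pass in BMAd-Pnpla2+/+. Of 7 mural cell genes 3 rose in BMAd-Pnpla2+/+, Cspg4 (1.47), Notch3 (1.10) and Mcam (1.02), and none in BMAd-Pnpla2-/-.

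Adhesion genes outside the 10 were mixed. Of 12 other vascular adhesion molecules tested 3 rose (Mcam, Vcam1 at 0.69 and Nectin2 at 0.77) and 1 fell (Cd34, -0.55) in BMAd-Pnpla2+/+, and none passed in BMAd-Pnpla2-/-. Of 12 leukocyte genes whose products bind the selectins, Icam1, Vcam1 or Madcam1, 5 fell and none rose in BMAd-Pnpla2+/+ (median -0.34), and 3 fell in BMAd-Pnpla2-/- (median -0.34). The P-selectin ligand gene Selplg fell in both (-0.53, adjusted p = 0.012 and -0.92, adjusted p = 0.0074) and Itgb2 in BMAd-Pnpla2+/+ (-0.46). The pair of integrin genes for Madcam1 did not pass: Itgb7 had -0.17 and -0.37, and Itga4 -0.08 and 0.25. Neutrophil genes, which belong to cells that carry many of these ligands, fell in 7 of 9 cases in BMAd-Pnpla2+/+ (median -0.85), and their part in the fall was not tested.

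Of 10 genes tested of lymphoid organs, where Madcam1 is at home, 1 rose in BMAd-Pnpla2+/+. It was Cxcl13, the chemokine that draws B cells, which went from 0.305 ± 0.391 CPM to 13.9 ± 9.23 CPM (SD, n = 4) with a log2 fold change of 5.47 (SE 0.90, adjusted p = 0.0026), and it rose in BMAd-Pnpla2-/- too (3.87, SE 1.05, adjusted p = 0.034). Glycam1 and Chst4, which define high endothelial venules of lymph nodes, were at 0 in all 14 libraries, which allows up to 3 reads or 0.133 to 0.163 CPM per library. Of 13 genes tested of the cytokine pathway that induces Sele, Icam1 and Madcam1 in culture, 2 rose and 2 fell in BMAd-Pnpla2+/+ (median -0.08). Il1b fell in both genotypes (-1.27, adjusted p = 0.0035 and -1.01, adjusted p = 0.028), Tnf fell in BMAd-Pnpla2+/+ (-0.57, adjusted p = 0.021), and the inhibitor gene Nfkbia rose there (0.20, adjusted p = 0.047) together with Il1r1 (0.58, adjusted p = 0.042).

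Marker genes of other cell types also differed between diets, and their part in the values above was not tested. All 8 adipocyte genes rose in BMAd-Pnpla2+/+ (median 2.07) and 6 in BMAd-Pnpla2-/- (1.86), 6 and 1 of 10 osteoblast genes rose, and 3 and 1 of 7 stromal genes. Of 8 B lineage genes 4 fell in both genotypes (medians -3.05 and -3.09), with Rag1 at -6.83 in BMAd-Pnpla2+/+. The 5 erythroid genes did not pass in either genotype. Of 3 skeletal muscle genes tested Myl1 rose in both (1.98 and 3.28), and the summed level of the 5 muscle genes was 0.853 to 9.76 CPM in the other 3 groups and 4.32 to 90.5 CPM in BMAd-Pnpla2-/- CR.

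Genes with the profile most like Madcam1 and most like Cdh5 were looked for over the 14 libraries, among 13042 genes with a mean of at least 50 reads, by the root mean square difference of centred log2 CPM. For Madcam1 the nearest were Fmod, the gene of the matrix proteoglycan fibromodulin (0.85), Trnp1 (0.98), 3425401B19Rik (0.99), Mc2r, the receptor of corticotropin (1.02), and Syt6 (1.03). Even these were far from it, and the nearest of the other 9 genes was Kdr at 1.54. The profiles were centred but not scaled, so a gene that changed much less than Madcam1 lies far from it whatever its pattern. Fmod had 0.578, 6.28, 1.06 and 3.20 CPM as means of BMAd-Pnpla2+/+ AL, BMAd-Pnpla2+/+ CR, BMAd-Pnpla2-/- AL and BMAd-Pnpla2-/- CR, against 0.406, 10.6, 1.35 and 2.87 CPM for Madcam1. Among the nearest to Cdh5 were Lrp5 (0.075), the VEGF co-receptor Nrp1 (0.082), Fam171a1 (0.092) and Dbn1 (0.10). Of the 10 genes Stab2 was closest to Cdh5 (0.12), followed by Flt4 and Kdr (both 0.18) and Emcn (0.20), and Pecam1 (0.32), Selp and Sele (both 0.41), Icam1 (0.49) and Madcam1 (1.60) were farther away.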

How the data were processed

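Marrow RNA from 14 samples in 4 groups of genotype and diet was sequenced by the authors as paired-end libraries and aligned with STAR to mm10. All were described as strand-specific, but the 3 BMAd-Pnpla2-/- CR libraries had about equal counts on both strands. Reads were checked with FastQC 0.11.9. The authors deposited read counts per gene for each sample (unstranded, first-strand and reverse-strand) and a matrix of counts over 23441 genes. The annotation release is not given in the sources used here. Symbols, exons and overlaps came from GENCODE M21.

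Unstranded counts (18898324 to 21665553 per library, where 3 reads make 0.133 to 0.163 CPM) were filtered with filterByExpr, scaled by TMM and tested with edgeR 4.0.16 (robust quasi-likelihood, 1 model of 4 group means, R 4.3.3). The model was tested on simulated data. Calls needed an adjusted p under 0.05, and the study's criteria also a log2 fold change over 1. Alternatives were the matrix, DESeq2 1.42.0, other scalings, no filter, fewer groups, each library left out and a replicate block, and, added after seeing the data, other strand counts. Named were all members, per list up to 4 genes past the criteria with the largest change in BMAd-Pnpla2+/+ (else the 2 highest), 5 genes nearest to Madcam1 and 5 nearest to Cdh5, of which 1 is not reported here; other names were chosen after values were seen. Samples are separate pools of mice. Members, lists and tests were chosen with earlier results of these data known.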

Additional observations from a re-analysis of the deposited data

Results flagged for a closer look

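In 3 of the 20 sets of 4 libraries examined, 1 library lay farther from the rest than Dixon's 95% limit for 4 values allows, and chance alone gives about 1 in 20. All 3 were in BMAd-Pnpla2+/+ AL. Madcam1 stood at 0.978 CPM in replicate 3, against 0.145 to 0.264 in the other 3 libraries. Icam1 stood at 52.8 CPM in replicate 1, against 33.9 to 35.9, and Kdr at 93.3 CPM in the same library, against 68.5 to 72.4. Without replicate 1 the effect of CR on Icam1 in BMAd-Pnpla2+/+ was -0.047 in place of -0.22 on the log2 scale.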

How the results depend on the processing

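The rise of Madcam1, Kdr and Flt4 under CR in BMAd-Pnpla2+/+ passed an adjusted p under 0.05 in all 23 alternatives, with log2 fold changes of 4.42 to 5.55, 0.80 to 1.11 and 0.74 to 1.14. Stab2 passed in 22, Emcn in 17 and Cdh5 in 16, and the fall of Icam1 in BMAd-Pnpla2-/- in 12 of 22. The 2 genes past the study's criteria in BMAd-Pnpla2+/+ became 1 with the deposited matrix, 1 without the count filter, 1 with only the groups compared and 1 with the replicate block, 3 with total counts alone, and 1 to 5 when a library was left out (5 without AL replicate 1 and 5 without CR replicate 4, the library lowest for 9 genes), where the log2 fold changes of Stab2, Kdr, Flt4 and Emcn, 0.88 to 1.01 as reported, lie near 1. At an adjusted p under 0.05 alone, 3 to 6 genes passed with a library left out (3 without CR replicate 3). Under CR in BMAd-Pnpla2-/- no gene rose at that threshold except Kdr and Flt4 with only the groups compared and Kdr without BMAd-Pnpla2+/+ CR replicate 4. Past the same criteria, the genotypes under CR differed in 1 gene with the deposited matrix, 1 with DESeq2 and 0 to 1 with a library left out (1, Madcam1, without BMAd-Pnpla2+/+ CR replicate 4), and the interaction was called for 1 gene with the deposited matrix and 1 with DESeq2. Those extra calls were Madcam1. At an adjusted p under 0.05 alone the matrix called 3 genes under CR, Madcam1 (0.022), Selp (0.0019) and Icam1 (0.0085), and 2 for the interaction, Madcam1 and Selp (-0.86, adjusted p = 0.047). Without BMAd-Pnpla2+/+ CR replicate 4, Cdh5, Kdr and Flt4 also passed an adjusted p under 0.05 under CR. The cause was not tested.

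Of 1110 alternative values, 41 changed sign, all of genes not called and near 0. Sele under CR in BMAd-Pnpla2+/+ gave -0.015 with the matrix and -0.13 to 0.12 with a library left out, and Selp -0.050 to 0.23. In BMAd-Pnpla2-/- Sele gave -0.017 with DESeq2, -0.013 with size factors, -0.047 without the filter, -0.0081 with only the groups compared and -0.037 to 0.077 with a library left out. Selp gave 0.053 and Pecam1 0.028 with total counts alone, and -0.12 to 0.039 and -0.14 to 0.034 with a library left out. Total counts alone moved the median of all genes to 0.12 in that comparison. Between genotypes under AL, Icam1 gave 0.035 with the matrix, 0.041 with summed strands and 0.034 with reverse-strand counts. With a library left out that comparison gave -0.16 to 0.11 for Icam1, -0.12 to 0.030 for Pecam1, -0.25 to 0.085 for Cdh5, -0.055 to 0.31 for Emcn and -0.23 to 0.038 for Kdr. The interaction of Sele gave 0.11 with the matrix, 0.020 with total counts alone and -0.10 to 0.12 with a library left out, and that of Selp -0.25 to 0.015.

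Same-numbered libraries did not deviate together in every pair (correlations of -0.38 to 0.33 over 19 pairs, 7 above 0.1), so numbers were not taken as pairs. With the replicate block Emcn between genotypes under AL gave -0.12, and the fall of Icam1 in BMAd-Pnpla2-/- an adjusted p of 0.055. Every log2 ratio to Cdh5 kept its sign with summed strands and with each library left out. Between 3 and 40 reads per AL library limit the precision of Madcam1.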
